A study of Mus musculus with 8 samples.

Results

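The genes described here are 10 heat shock chaperones, taken by symbol from the 32285 genes of a single-cell RNA matrix of the mouse ascending thoracic aorta. They are Hspa1a, Hspa1b, Hspa8 and Hspa5 of the Hsp70 family, the co-chaperones Dnajb1 and Bag3, Hsph1 of the Hsp110 family, the small heat shock protein gene Hspb1, Hsp90aa1 of the Hsp90 family, and Hspe1, which encodes the mitochondrial co-chaperonin Hsp10. All 10 were found once each in the matrix. Each was described across the cell classes and clusters of the vessel, with the inducible genes set beside the constitutive Hspa8 and Hspa5.

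The cells came from 3 aged wildtype mice of 81, 84 and 88 weeks, all handled alike, and a young or an undigested group was not analysed here. Per the labels, elastase (1 mg/mL) and collagenase II (10 mg/mL) acted on the ascending aorta at 37 °C over 60 min, the cells were strained through 70 µm and dead cells removed, and about 15000 cells were loaded. Each mouse was marked with its own hashtag, an antibody that carries a DNA barcode, and the pool was sequenced as 4 gene expression and 4 hashtag libraries. The 8 deposited samples are therefore libraries of 1 pool and not animals, and the matrix does not separate them.

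Chaperones bind proteins that are unfolded or still being folded and keep them from aggregating. The inducible genes among them are switched on within minutes by heat and other protein stress, when heat shock factor 1 binds the heat shock element, a repeat of short inverted units in their promoters. Constitutive chaperones serve folding in unstressed cells, in the cytosol for Hspa8 and in the endoplasmic reticulum for Hspa5. Enzymatic digestion of a tissue at body temperature is known to raise the RNA of inducible chaperones, so that a level in dissociated cells can hold both what the tissue carried and what the procedure added, and these cannot be told apart in samples that were all digested in the same way.

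The matrix held 26916 barcodes with a median of 2975 UMIs (unique molecular identifiers, which count captured RNA molecules), from 900 to 104654, and a median mitochondrial share of 15.9%. After filtering and doublet removal 10408 cells fell into 22 clusters, of which 4175 carried exactly 1 hashtag. The share with 1 hashtag was 89.2% of 1103 endothelial-like and 90.6% of 1882 T cell-like cells, but 9.91% of 4764 smooth muscle-like and 16.4% of 1308 fibroblast-like cells. Hashtag counts lay a median of 3.00 times over the cutoff in endothelial-like cells and 1.30 times in smooth muscle-like cells. Whether the smooth muscle-like and fibroblast-like sets represent the animal whose hashtag they carry was not tested. The cells of 1 class with the same hashtag were summed to a set, named here by the age of the mouse, and levels are given as CPM (UMIs of a gene per 1e6 gene UMIs of the set). The sets held 136, 163 and 173 smooth muscle-like cells, 252, 421 and 311 endothelial-like cells, 42, 127 and 46 fibroblast-like cells, and 34, 1314 and 358 T cell-like cells at 81, 84 and 88 weeks. The T cell-like clusters were led by genes such as Rag1, Cd8b1 and Ccr9, genes of immature T cells, or by genes of dividing cells such as Top2a and Mki67.

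The promoters of these genes show which of them carry the letters of a heat shock element, so they are given before the levels. RefSeq sequences for the build GRCm38.p6 held a window for 8 of the 10 genes, and Hsp90aa1 and Hspa8 had none. In the 250 bases before the start, both strands were searched for the paired unit GAANNTTC or TTCNNGAA, for the triple unit GAANNTTCNNGAA or TTCNNGAANNTTC, which holds the paired unit, and for the endoplasmic reticulum stress response element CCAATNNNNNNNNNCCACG. Shown are the last 150 bases before the start, 5′ to 3′ on the gene's strand, of the copies Hspa1a and Hspa1b, of Hspe1 with the longest run of units and of Hspa5 with the other element. Capitals mark the matches.
Hspa1a, chr17:34972157-34972306, minus strand: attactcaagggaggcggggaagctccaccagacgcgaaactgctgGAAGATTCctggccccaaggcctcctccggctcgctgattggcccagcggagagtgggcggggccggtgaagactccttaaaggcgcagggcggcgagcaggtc
Hspa1b, chr17:34959239-34959388, minus strand: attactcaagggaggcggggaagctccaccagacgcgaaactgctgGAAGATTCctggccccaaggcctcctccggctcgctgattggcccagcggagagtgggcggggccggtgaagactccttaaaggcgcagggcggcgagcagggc
Hspe1, chr1:55087998-55088147, plus strand: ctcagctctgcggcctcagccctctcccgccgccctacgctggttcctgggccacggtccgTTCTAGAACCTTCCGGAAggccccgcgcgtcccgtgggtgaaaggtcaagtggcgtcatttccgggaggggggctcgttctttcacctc
Hspa5, chr2:34771940-34772089, plus strand: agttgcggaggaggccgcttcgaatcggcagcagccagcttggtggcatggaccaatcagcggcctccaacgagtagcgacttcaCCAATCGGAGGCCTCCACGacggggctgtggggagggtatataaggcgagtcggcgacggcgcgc

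The windows of Hspa1a and Hspa1b were the same at 247 of 250 bases and held the same GAAGATTC. The Hspb1 window held GAAGTTTC and GAACCTTC, and that of Hsph1 held TTCTCGAA. In Hspe1 the units TTCTAGAA, GAACCTTC and TTCCGGAA overlapped, which gave the triple unit. No paired unit was found in the windows of Dnajb1, Bag3 and Hspa5, which says only that these letters are not in this stretch. The paired unit occurred in 12.8% of all 32851 windows, the triple unit in 0.466%, and the element found in Hspa5 in 0.113%. A match describes the sequence and shows no binding. The genes themselves lie at 17:34969359-34972156 (Hspa1a, ENSMUSG00000091971) and 17:34956429-34959238 (Hspa1b, ENSMUSG00000090877), side by side on chromosome 17 and near-identical in sequence, so how the counting split reads between them is uncertain. Both are therefore also given as a sum.

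Hspa1a and Hspa1b, the stress-inducible Hsp70 genes, were high in muscle and endothelium and low in fibroblast-like and T cell-like cells. Hspa1a measured 234, 256 and 252 CPM in the smooth muscle-like sets of 81, 84 and 88 weeks, and 184, 256 and 285 CPM in the endothelial-like sets. In the fibroblast-like sets it measured 28.7, 35.6 and 15.2 CPM, and in the T cell-like sets 6.24, 14.1 and 19.5 CPM. The sets of muscle and endothelium overlapped, and every one of them lay above every fibroblast-like and T cell-like set. Hspa1b had the same order of class means but no overlap between muscle and endothelium, with 234 ± 42.3 CPM (SD, n = 3 sets) in smooth muscle-like cells, 158 ± 27.5 in endothelial-like cells, 29.7 ± 8.13 in fibroblast-like cells and 7.88 ± 6.99 in T cell-like cells. In the T cell-like set of 81 weeks Hspa1a had 1 UMI and Hspa1b none, where 0 UMIs allow up to 18.7 CPM.

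Dnajb1, the Hsp40 co-chaperone that hands substrates to Hsp70 and stimulates its ATPase, did not share this order. It measured 33.5, 44.0 and 58.0 CPM in the smooth muscle-like sets and 65.8, 75.8 and 73.3 CPM in the endothelial-like sets. The T cell-like sets held 31.2, 76.8 and 88.2 CPM, and the fibroblast-like sets 15.6, 31.0 and 35.6 CPM. T cell-like cells, which had the lowest Hspa1a, thus overlapped endothelial-like cells in Dnajb1. Hsph1, the Hsp110 nucleotide exchange factor of Hsp70, measured 129.9, 129.6 and 131.6 CPM in the smooth muscle-like sets but 28.5, 90.7 and 155 CPM in the endothelial-like sets. The endothelial-like sets thus ran from the level of the fibroblast-like sets (27.4 to 44.3 CPM) to above that of the muscle sets.

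Hspb1, a small heat shock protein that binds unfolded proteins and actin filaments, was abundant in muscle and endothelium and low in fibroblast-like and T cell-like cells. It measured 1174, 1266 and 1367 CPM in the smooth muscle-like sets and 1192, 1739.6 and 1892 CPM in the endothelial-like sets. Fibroblast-like sets had 167 ± 35.4 CPM and T cell-like sets 60.9 ± 36.2 CPM. Bag3, which joins Hsp70 to small heat shock proteins and to autophagy of damaged muscle proteins, measured 58.8, 66.4 and 55.8 CPM in the smooth muscle-like sets, 40.9, 53.0 and 57.3 CPM in the endothelial-like sets and 44.3, 32.9 and 25.4 CPM in the fibroblast-like sets. In T cell-like cells it had no UMI at 81 weeks and 3.59 and 5.73 CPM in the other sets.

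Hsp90aa1, the stress-responsive cytosolic Hsp90, and Hspe1, the lid of the mitochondrial chaperonin, varied less between classes. Hsp90aa1 measured 803, 819 and 810.3 CPM in smooth muscle-like, 434, 832 and 1013 CPM in endothelial-like, 417, 343 and 358 CPM in fibroblast-like and 911, 769 and 741 CPM in T cell-like sets. All fibroblast-like sets lay below all sets of the other 3 classes. Hspe1 lay at 259 ± 26.4 CPM in smooth muscle-like, 168 ± 43.4 in endothelial-like, 162 ± 25.9 in fibroblast-like and 173 ± 2.96 in T cell-like cells, and the latter 3 classes overlapped.

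Of the constitutive pair, Hspa8, the cytosolic Hsc70, was abundant in every class. Its sets measured 1178, 1228 and 1237 CPM in smooth muscle-like, 1450.0, 2171 and 2329 CPM in endothelial-like, 623, 668 and 528 CPM in fibroblast-like and 892, 1154 and 1156 CPM in T cell-like cells. Hspa5, the endoplasmic reticulum Hsp70 also called BiP, had another order, with fibroblast-like cells highest at 662, 560.5 and 516 CPM. Smooth muscle-like sets measured 421, 393 and 381 CPM, endothelial-like sets 311, 292 and 390.5 CPM, and T cell-like sets 106, 153 and 145 CPM. Every fibroblast-like set of Hspa5 lay above every set of the other 3 classes. The plot of CPM by set shows these orders side by side.

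**Figure D1:**
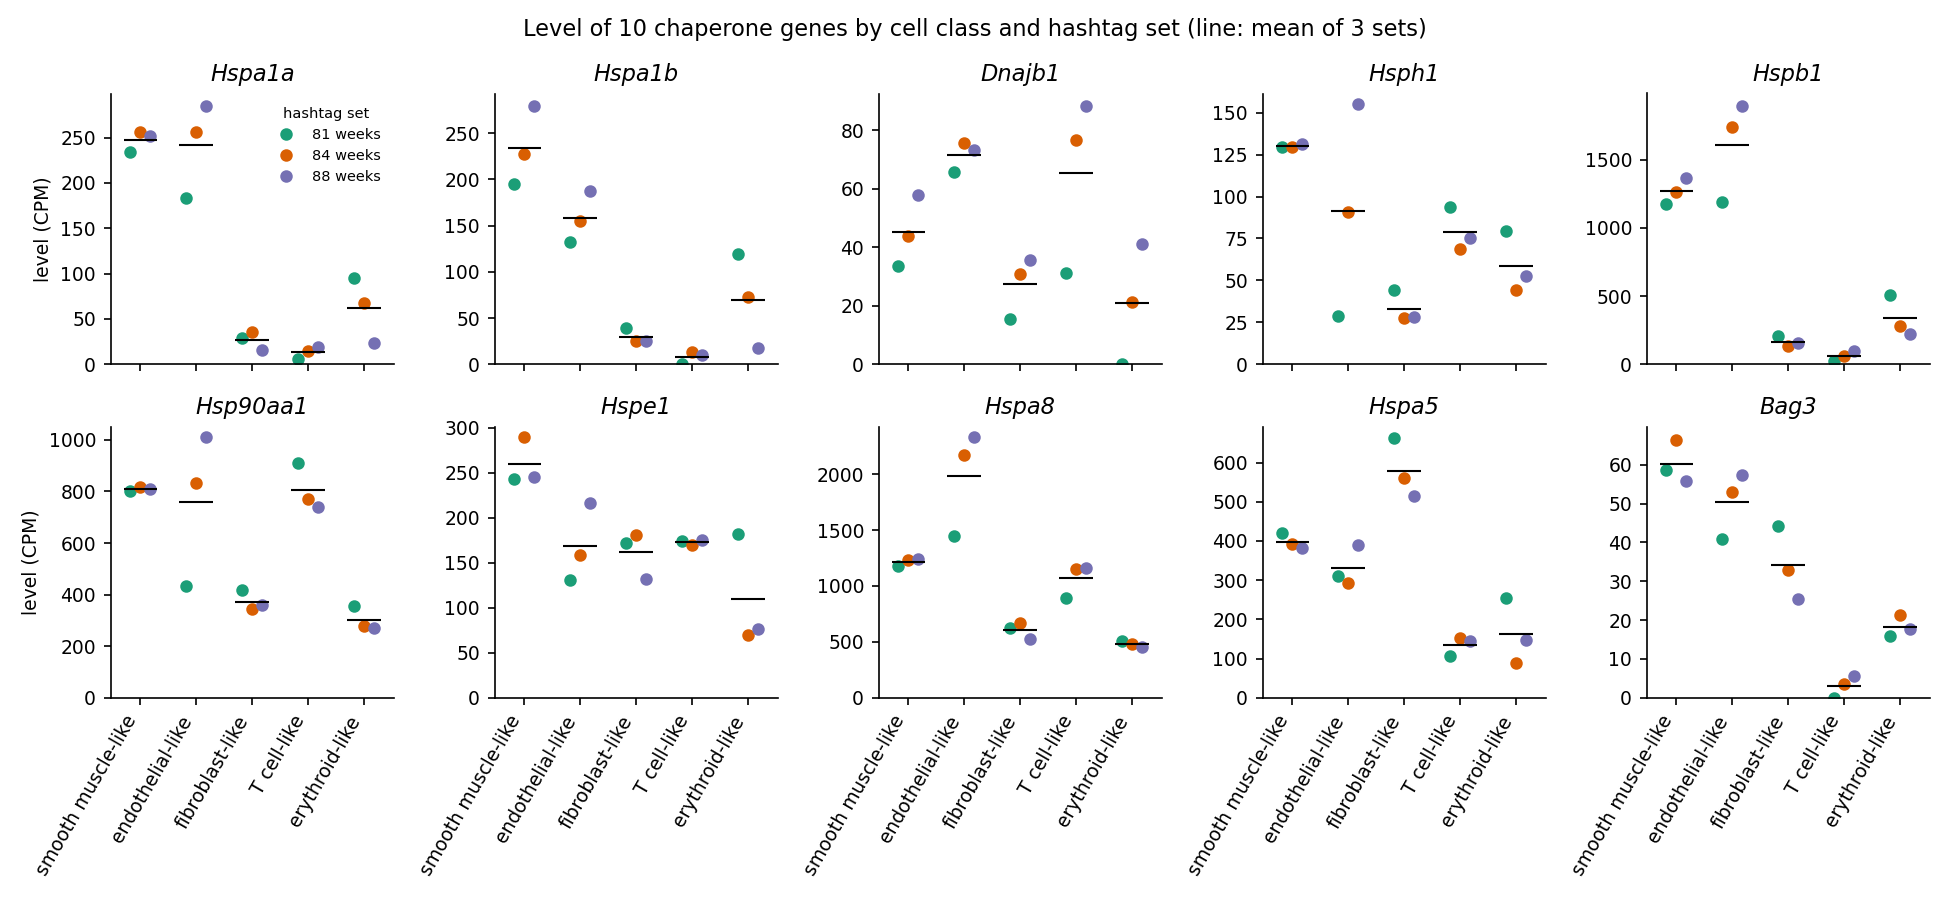
Level of each chaperone (CPM, each gene on its own linear axis from 0) in 5 cell classes; each point is the hashtag set of 1 mouse, coloured by age, and the line is the mean of 3 sets. Hspa1a, Hspa1b, Hspb1 and Bag3 are lowest in T cell-like cells, while Dnajb1, Hsp90aa1 and Hspa8 are not, and Hspa5 is highest in fibroblast-like cells.

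The set of 81 weeks was the lowest endothelial-like set for 9 of the 10 genes, with Hspa5 as the exception. The same set was lowest for 7 of the 10 genes in smooth muscle-like and in T cell-like cells, but for 1 of the 10 in fibroblast-like cells, where it was highest for 6. In T cell-like cells it held 34 cells, with 0 to 5 UMIs each of Hspa1a, Hspa1b, Dnajb1, Hspb1 and Bag3. The share of all genes that were lowest in these sets is not given, so the counts are not read as a trait of chaperones. With 1 animal an age, age and animal cannot be told apart, and whether the low set reflects either or the hashtag calls was not tested.

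The ratio of the inducible Hsp70 pair to the constitutive gene of the same family, which does not rest on the total UMIs, differed between classes. The sum of Hspa1a and Hspa1b per 100 UMIs of Hspa8 was 36.5, 39.4 and 42.9 in the smooth muscle-like sets and 21.8, 18.9 and 20.3 in the endothelial-like sets. It was 9.20 ± 1.60 in fibroblast-like and 1.88 ± 1.03 in T cell-like cells. The sets of these 4 classes did not overlap in this ratio, although Hspa1a itself overlapped between muscle and endothelium. Hspa8 differed between those classes, at 1214 ± 32.3 CPM in smooth muscle-like and 1983 ± 469 CPM in endothelial-like sets. The ratio thus holds the differences of Hspa8 as well as those of the pair. Hspa1a made up 51.7 ± 3.76% of the pair in smooth muscle-like, 60.3 ± 2.13% in endothelial-like and 46.3 ± 11.3% in fibroblast-like cells, a split that carries the uncertainty of near-identical copies.

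RNA of smooth muscle, the most numerous class, was also present in the T cell-like, fibroblast-like, endothelial-like and erythroid-like sets, and its level is needed beside the low values. The sum of 10 smooth muscle marker genes was 45266 to 47389 CPM in smooth muscle-like sets, and in T cell-like sets it was 4.40 ± 1.48% of that level. Hspa1a in T cell-like cells was 5.29 ± 2.54%, Hspa1b 3.19 ± 2.96%, Hspb1 4.67 ± 2.50% and Bag3 5.23 ± 5.14% of the smooth muscle-like level. These 4 percentages lay within their spread of that of the muscle markers, and no expression by T cell-like cells is read from them. The remaining genes were far above it there, from 34.1% for Hspa5 to 140% for Dnajb1, with Hsp90aa1 at 99.6%. In fibroblast-like cells the muscle markers were at 4.63 ± 1.28%, against 10.7 ± 4.12% for Hspa1a, 13.3 ± 5.87% for Hspa1b, 13.3 ± 3.69% for Hspb1 and 145% for Hspa5. Endothelial-like cells held the muscle markers at 7.93 ± 1.56%, while their Hspa1a level was as high as in muscle.

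The first comparison asked whether contractile and matrix-producing cells of the wall differed in chaperone RNA after the same digestion. Of the 10 chaperones 7 were higher in smooth muscle-like than in fibroblast-like cells and none was lower, where 10.9% of all 9651 genes tested were called higher and 24.1% one way or the other. A call needed an adjusted p under 0.05 in edgeR's quasi-likelihood test and a log2 fold change of at least 1 in size. The difference was 3.28 ± 0.18 (log2 ± SE, adjusted p = 5.4e-11) for Hspa1a, 3.21 ± 0.19 (9.3e-11) for Hspa1b, 3.14 ± 0.13 (8.0e-13) for Hspb1 and 2.22 ± 0.18 (1.2e-08) for Hsph1. Hsp90aa1 (1.31 ± 0.10), the constitutive Hspa8 (1.17 ± 0.10) and Bag3 (1.05 ± 0.21, adjusted p = 0.00042) were higher by less. Hspe1 at 0.86 ± 0.12, Dnajb1 at 0.84 ± 0.22 and Hspa5 at -0.36 ± 0.10 stayed under the fold required but passed by adjusted p alone, so that all 10 did, where 39.5% of all genes passed that rule. The median over the 10 genes was 1.24, against 0.00 over all genes tested. The Bag3 call was lost in 6 of the alternative settings, in 5 of them under the fold required (0.75 to 0.94) and in the other, with hashtag counts at least 2 times the cutoff, on its adjusted p (1.00, adjusted p = 0.063). Under the latter setting Hsp90aa1 also lost its call (0.92). T cell marker RNA was found in 57.2% of the fibroblast-like cells with 1 hashtag and 20.7% of those with none, and without such cells the same comparison gave 1.04 for Dnajb1, which then passed. DESeq2 was run without the filter on low counts, and its median over all genes was -0.20 here, against 0.00 in edgeR. For endothelial-like against fibroblast-like cells the 2 medians were -0.18 and 0.00, and between the endothelial-like clusters -0.19 and 0.02. The parts of scaling and filter in this were not tested.

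The second comparison set the lining cells of the vessel against its contractile cells. None of the 10 genes was called between endothelial-like and smooth muscle-like cells, where 32.9% of all 10486 genes were called one way or the other. Hspa1a differed by -0.13 ± 0.12 (95% interval -0.36 to 0.10, adjusted p = 0.37), so a 2-fold difference lies outside its interval. By adjusted p alone, which 57.6% of all genes passed, 2 chaperones were higher in endothelial-like cells, namely Hspa8 at 0.60 ± 0.12 (adjusted p = 0.00043) and Dnajb1 at 0.58 ± 0.15 (0.0030). The 4 lower ones were Hspe1 at -0.72 ± 0.13 (0.00024), Hsph1 at -0.67 ± 0.26 (0.035), Hspa1b at -0.64 ± 0.10 (5.4e-05) and Hspa5 at -0.35 ± 0.12 (0.015). Differences of Hspb1 (0.24 ± 0.11), Hsp90aa1 (-0.25 ± 0.16) and Bag3 (-0.33 ± 0.15) missed the threshold. Without the set of 88 weeks Hsph1 was called lower at -1.21, and the sign of the Hspa1a difference turned without the set of 81 weeks (0.01). Erythroid marker RNA summed to 9797 to 17628 CPM in the endothelial-like sets, and its part in these values was not tested.

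Endothelial-like cells against fibroblast-like cells gave nearly the list of the first comparison. Here 6 of the 10 were higher and none lower, where 12.8% of all 9437 genes were called higher and 27.6% one way or the other, and the median over the 10 was 1.42. The differences were 3.30 ± 0.20 for Hspb1 (adjusted p = 1.9e-08), 3.10 ± 0.22 for Hspa1a (8.7e-08), 2.48 ± 0.21 for Hspa1b (5.3e-07), 1.70 ± 0.16 for Hspa8 (1.4e-06), 1.47 ± 0.36 for Hsph1 (0.0049) and 1.37 ± 0.22 for Dnajb1 (0.00018). Hsph1 was higher in 2 of the 3 sets with overlapping groups, and its call was lost when the 84-week set (1.16) or the 88-week set (1.06) was left out, and under DESeq2 (1.32, adjusted p = 0.078). Hspe1 differed by 0.03 ± 0.18, and Hsp90aa1, Bag3 and Hspa5 by 0.98 ± 0.22, 0.61 ± 0.24 and -0.80 ± 0.15. The comparison shares its fibroblast-like sets with the first, so the likeness of both lists is no independent result. Hsp90aa1 was called in 5 alternative settings, at 1.03 to 1.43, and Bag3 without cells with T cell RNA, at 1.14.

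T cell-like and endothelial-like cells were the tested classes in which most cells carried 1 hashtag. Of the 10 chaperones 6 were lower in T cell-like cells, where 25.6% of all 10556 genes were called lower. The difference (log2 ± SE) was -4.76 ± 0.17 for Hspb1, -4.18 ± 0.18 for Hspa1a, -3.86 ± 0.19 for Hspa1b, -3.81 ± 0.27 for Bag3, -1.34 ± 0.14 for Hspa5 and -1.04 ± 0.13 for Hspa8. Hsph1 at -0.64 ± 0.16 passed by adjusted p alone, as did 69.8% of all genes. For Hsp90aa1 (-0.06 ± 0.13, adjusted p = 0.67), Dnajb1 (-0.06 ± 0.16, 0.73) and Hspe1 (-0.14 ± 0.14, 0.37) no difference was detected. The muscle RNA described above sets a level under which the first 4 genes cannot be followed in T cell-like cells. The Hspa8 call was lost under a mitochondrial share of 10% (-0.78) and without doublet removal (-0.91).

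**Figure D2:**
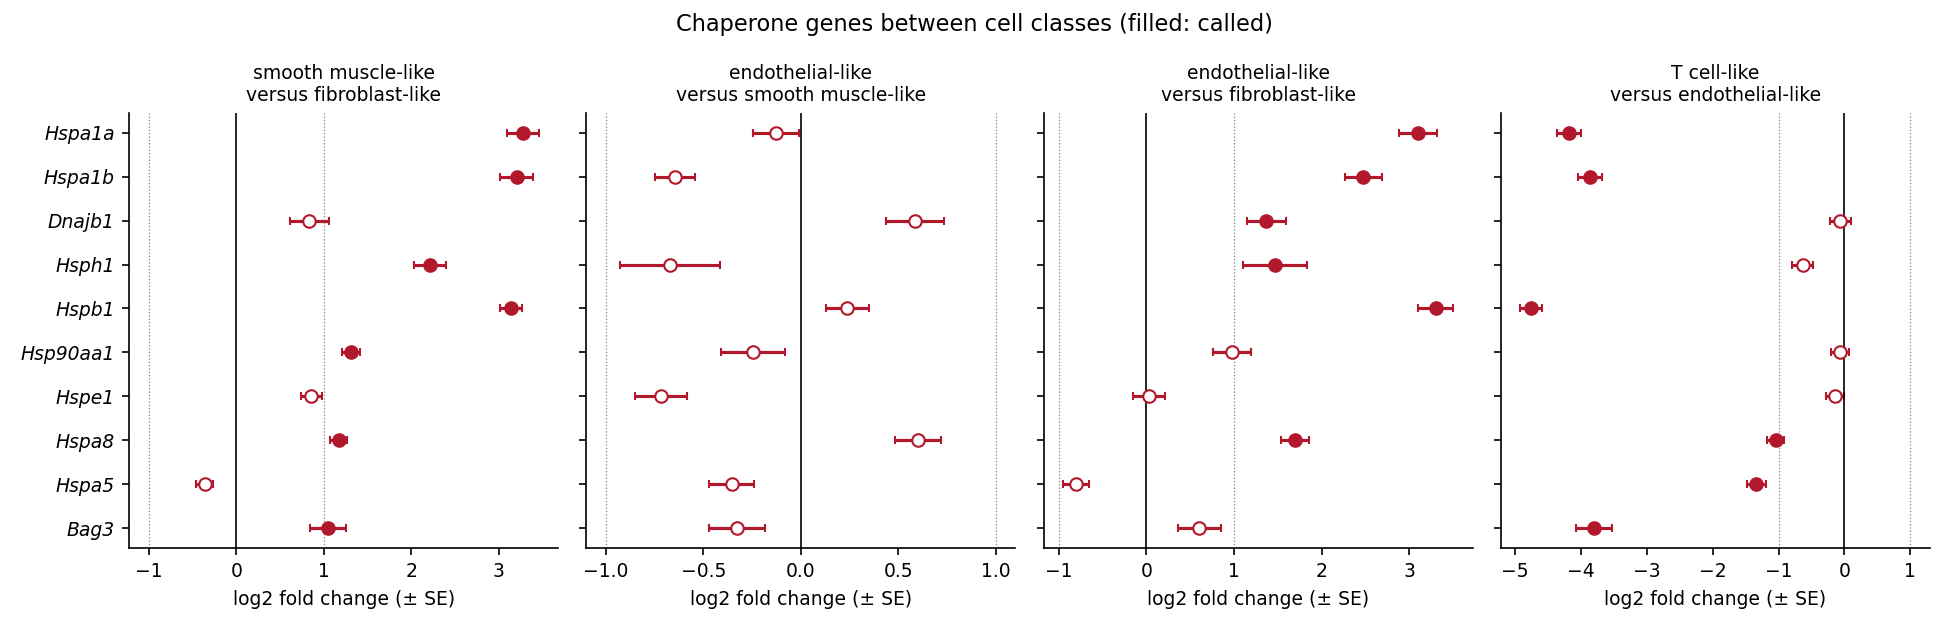
Log2 fold change of each chaperone in the 4 comparisons of classes, 1 panel each with its own x axis; points are estimates, bars the SE, filled points the genes called, and dotted lines the fold required for a call. Hspa1a, Hspa1b and Hspb1 stand furthest from 0 against fibroblast-like cells, at 2.48 to 3.30, and at -4.76 to -3.86 in T cell-like against endothelial-like cells, while all 10 lie within 1 of 0 between endothelial-like and smooth muscle-like cells.

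Within the smooth muscle-like class, cluster 0 (2284 cells, led by the contractile genes Des and Tpm2) was compared with cluster 2 (2013 cells, led by Igfbp2 and Fn1). None of the 10 genes was called, where 0.656% of 7769 genes were (0.399% lower), and 3 were lower in cluster 0 by adjusted p alone, where 3.63% of genes passed that rule. Hspa1a measured 146, 204 and 112 CPM in cluster 0 and 262, 287 and 305 CPM in cluster 2, without overlap, a difference of -0.89 ± 0.12 (adjusted p = 5.3e-08). Hspa1b differed by -0.59 ± 0.12 (0.0010), with sets that overlapped and 1 of 3 the other way, and Hspa8 by -0.25 ± 0.06 (0.012). Over the cells of every hashtag state, however, Hspa1a measured 196 CPM in cluster 0 and 229 CPM in cluster 2, a difference of -0.23 against -0.89 in the cells with 1 hashtag. Without the set of 84 weeks Hspa1a was called at -1.15. A smaller cluster 13 (467 cells, led by Tnnt2, Actc1 and Corin) held 323 CPM of Hspa1a and 261 of Hspa1b but 78.0 of Hsph1, which was at 114 and 141 in clusters 0 and 2. The chaperones did not enter the clustering, but clusters and tests use the same cells, so these comparisons are not independent of the grouping. When the chaperones and related lists were kept in the clustering, a smooth muscle-like cluster of 705 cells was led by Hspa1b, Hspa1a, Fosb and Atf3. Those genes then helped to form that cluster, so it is a description only.

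The endothelial-like class held a larger split. Cluster 5 (977 cells) was led by Gpihbp1, Cd36 and Fabp4, genes of lipid uptake in capillary endothelium, and cluster 18 (126 cells) by Ccl21a, Vwf and Cytl1. Of the 10 chaperones 8 were higher in cluster 5 and none lower, where 10.6% of all 8000 genes were called higher and 23.1% one way or the other. Hspa1a measured 206, 287 and 384 CPM in cluster 5 and 63.8, 50.7 and 25.3 CPM in cluster 18, a difference of 2.87 ± 0.32 (adjusted p = 1.7e-05). Hspb1 measured 1309.9, 1947 and 2469.5 CPM against 574, 348 and 379 CPM, a difference of 2.17 ± 0.25. Hspa1b differed by 2.74 ± 0.28, Dnajb1 by 1.66 ± 0.26, Hspa8 by 1.22 ± 0.17, Bag3 by 1.21 ± 0.28, Hsp90aa1 by 1.19 ± 0.25 and Hsph1 by 1.17 ± 0.37 (0.027). Hsph1 overlapped between the clusters, with 25.3, 95.6 and 196 CPM against 45.6, 57.4 and 48.7 CPM. Hspe1 differed by 0.00 ± 0.19. Hspa5 went the other way, at 298 ± 31.1 against 461 ± 81.8 CPM (-0.59 ± 0.15, adjusted p = 0.0096), past the adjusted p alone, as were 33.4% of all genes.

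Cluster 18 was the deeper one, with a median of 8117 UMIs per cell and 7.91% mitochondrial UMIs, against 3979 UMIs and 9.75% in cluster 5, and the part of depth in the difference was not tested. Without the set of 88 weeks 4 of the 8 calls were left, with Hsph1 at 0.23, Hsp90aa1 at 0.74, Bag3 at 0.91 and Hspa8 at 0.98. Without cells with T cell RNA 5 were left, with Hsph1 at 0.92, Hsp90aa1 at 0.96 and Bag3 at 0.97, and DESeq2 did not call Hsph1 (0.84) or Bag3 (1.23, adjusted p = 0.099). The sets of cluster 18 held 27, 24 and 39 cells.

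**Figure D3:**
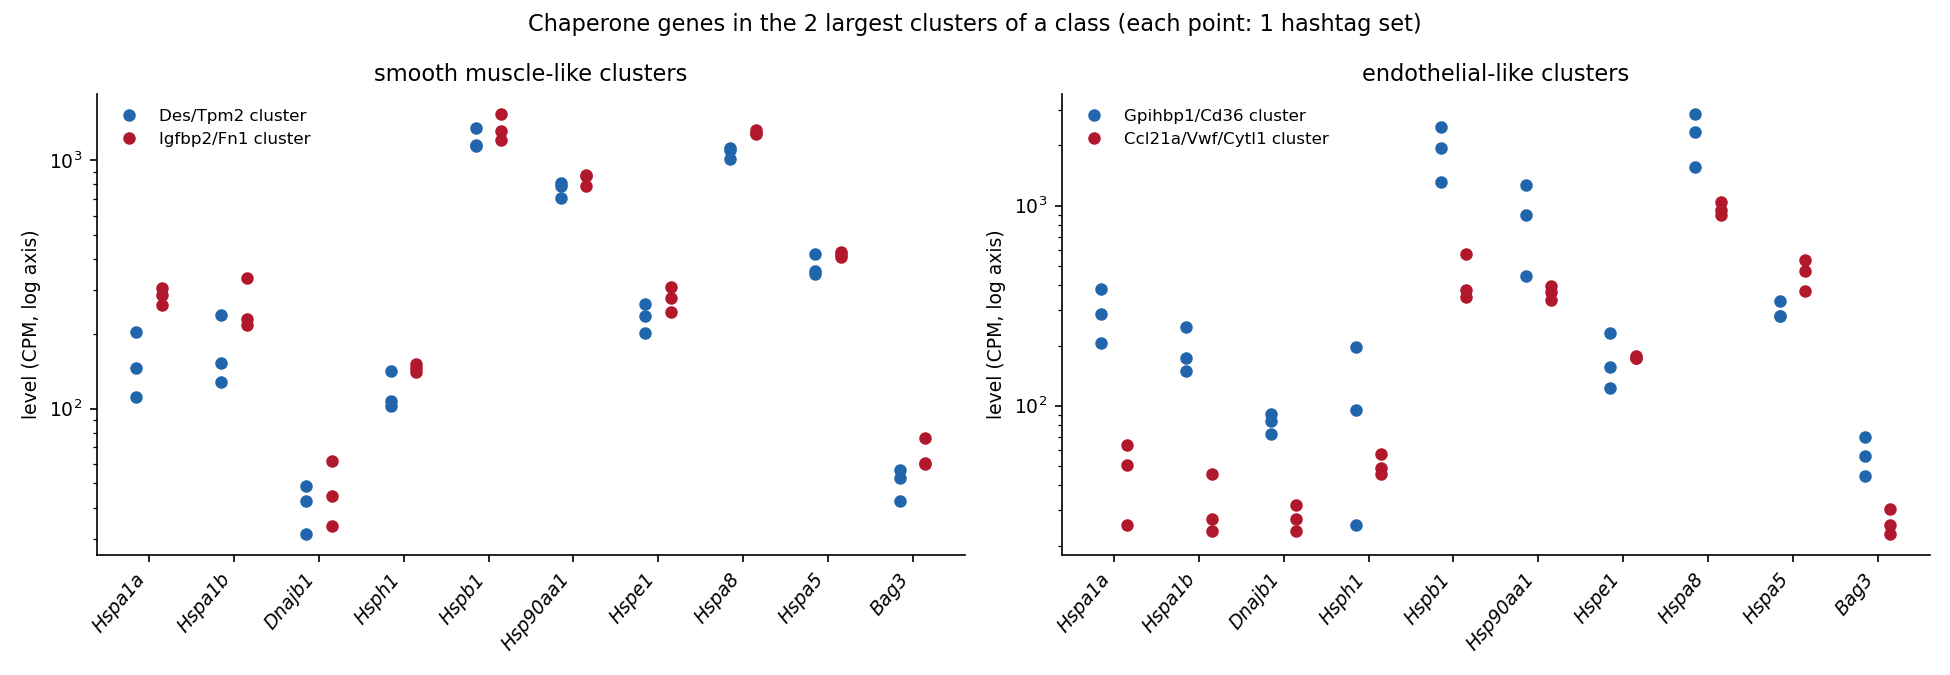
Level of the chaperones (CPM, log axis) in the compared clusters of smooth muscle-like cells (left) and endothelial-like cells (right); each point is 1 hashtag set and colours mark the cluster. The endothelial-like clusters stand apart for Hspa1a, Hspa1b and Hspb1 without overlap, while of these 3 genes the smooth muscle-like clusters stand apart for Hspa1a.

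The T cell-like clusters differed among themselves in several chaperones. Pooled over cells, Hsp90aa1 measured 1028 CPM in cluster 6 and 968 in cluster 10, both led by genes of dividing cells, and 275 in cluster 12, led by Rag1 and Cd8b1, and 501 in cluster 14, led by Cd5 and Tox. Hspa8 measured 1379, 1347, 627 and 1129 CPM in the same order, and Dnajb1 96.4, 77.7, 58.4 and 54.1 CPM. Hspe1 was higher in clusters 10 and 14 (255 and 239 CPM) than in clusters 6 and 12 (153 and 103 CPM). These are pooled values without a test, and cluster 12 was the shallowest with a median of 2864 UMIs per cell.

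Rarer classes were too small for a test, so their pooled levels are descriptions with counting intervals. Pericyte-like cells (122) held 127 CPM of Hspa1a (106 to 151) and 919 CPM of Hspb1. The Hspa1a level was 219 CPM (160.2 to 292) in the 24 pericyte-like cells with 1 hashtag and 102 CPM (80.9 to 127) in the 98 with none. Mesothelial-like cells (51), which line the outer surface, had the highest Hspa5 of all classes at 994 CPM and the lowest Dnajb1 at 13.5 CPM. Chondrocyte-like cells (100) had the highest Bag3 at 73.3 CPM and 60.9 CPM of Hspa1a. Erythroid-like cells (374) held 159 CPM of Hspa1a, but 194 CPM in those without a hashtag and 63.0 CPM in those with 1, and their sets held the muscle markers at 38.5 ± 24.6% of the smooth muscle-like level. Over 9 classes the ratio of the highest to the lowest pooled level was 24.1 for Hspb1, 18.3 for Bag3, 16.6 for Hspa1a, 15.1 for Hspa1b, 6.62 for Hspa5, 5.76 for Dnajb1, 4.34 for Hsph1, 3.13 for Hspa8, 2.29 for Hsp90aa1 and 1.47 for Hspe1. For Hspb1, Bag3, Hspa1a and Hspa1b the lowest class was the T cell-like one. Their level there could not be told from the muscle RNA described above, so their ratios depend on that RNA.

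In smooth muscle-like cells the variance of UMIs per cell relative to their mean was highest for Hspb1, Hspa1a and Hspa1b, and other classes had other orders. In 4595 smooth muscle-like cells thinned to 5000 UMIs each, the variance divided by the mean, which is near 1 for pure counting, was 9.73 for Hspb1, 6.97 for Hspa1a and 6.50 for Hspa1b. It was 2.90 for Hspa8, 2.27 for Hsp90aa1, 1.54 for Dnajb1, 1.52 for Hspa5, 1.44 for Hsph1, 1.21 for Hspe1 and 1.09 for Bag3. A Hspa1a UMI was found in 37.6% of these cells, with a mean of 1.09 and up to 46 in 1 cell. Few counts pull the ratio toward 1 without fixing it there, as T cell-like Hspb1 had 2.35 at a mean of 0.25. The low values of Dnajb1, Hsph1 or Bag3 therefore do not show that all cells carried them evenly. The 10% of cells with most Hspa1a held 67.2% of its UMIs, against 25.3% for Hspa8. This share was 70.9% for Hspa1b, 64.6% for Dnajb1, 51.8% for Bag3, 44.7% for Hsph1 and 38.8% for Hspb1. The ratio and the share thus gave different orders. Both depend on the mean, which was 6.33 UMIs for Hspb1 and 0.231 for Dnajb1, so neither alone ranks the genes by unevenness. In 410 endothelial-like cells the variance divided by the mean was 6.71 for Hspb1, 5.61 for Hspa1a, 4.09 for Hsp90aa1, 3.47 for Hspa8 and 2.99 for Hspa1b. In 1065 fibroblast-like cells Hspa5 was highest at 2.23 and Hspa1a stood at 1.48, and in 593 T cell-like cells Hsp90aa1 was highest at 2.71.

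**Figure D4:**
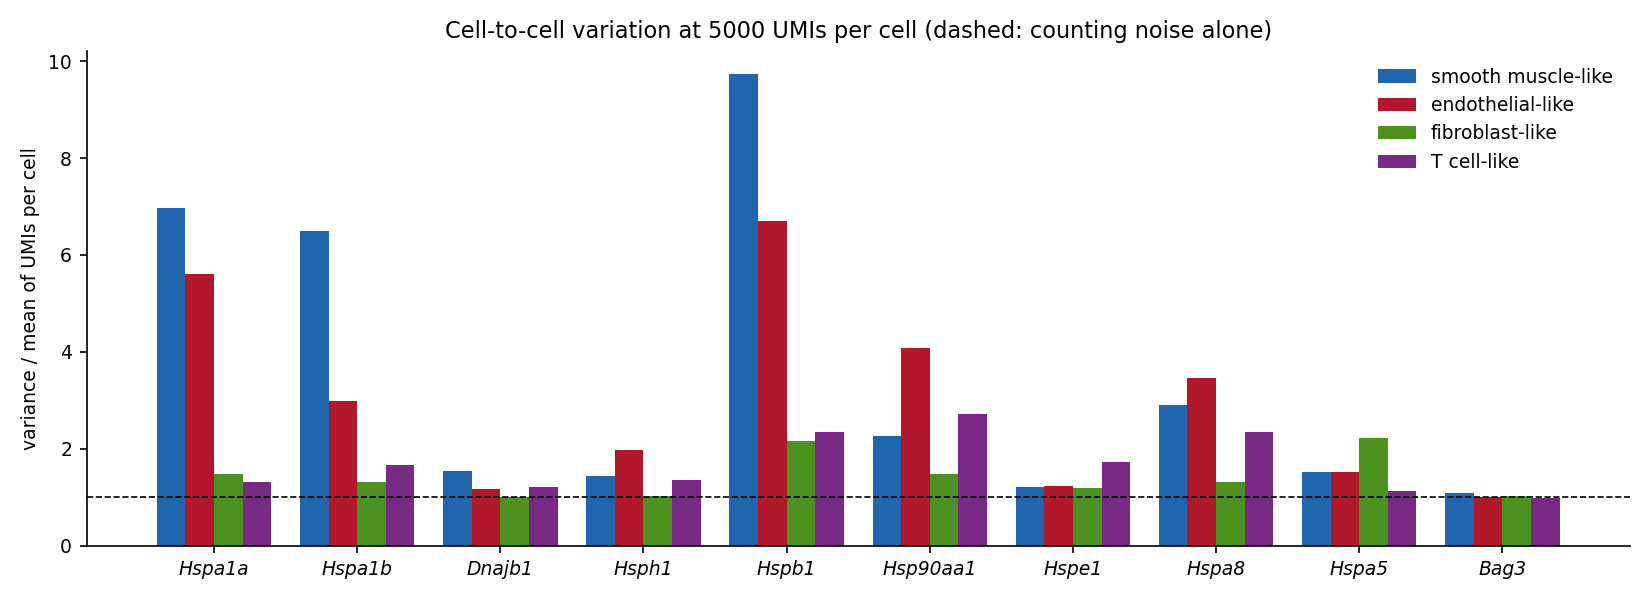
Variance divided by mean of UMIs per cell (bars, linear axis from 0) after thinning to 5000 UMIs, for each chaperone in the 4 main classes by colour; the dashed line at 1 is the value for counting alone. Hspb1, Hspa1a and Hspa1b have the highest ratios in smooth muscle-like cells, and Hspe1 and Bag3 lie near 1 there. The ratio depends on the mean count of a gene, so it does not alone rank genes by unevenness.

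In muscle and endothelium, cells that carried the inducible Hsp70 also carried more of most other members. After the same thinning 2298 smooth muscle-like cells had a UMI of Hspa1a or Hspa1b and 2297 had none, and the mean of the other genes was divided between these groups. The ratio was 2.17 for Dnajb1, 1.70 for Hspb1, 1.68 for Hsph1, 1.55 for Hspa8, 1.53 for Bag3, 1.43 for Hsp90aa1, 1.19 for Hspe1 and 0.991 for Hspa5. In endothelial-like cells (194 against 216) it was 2.78 for Hsph1, 2.34 for Hsp90aa1, 2.29 for Hspb1, 1.92 for Dnajb1, 1.84 for Hspe1, 1.54 for Hspa8, 0.988 for Hspa5 and 0.803 for Bag3. Hspa5 thus had nearly the same mean in cells with and without inducible Hsp70 in both classes. Thinning left out 693 of the 1103 endothelial-like cells, and clusters 5 and 18 differ in depth and in Hspa1a, so the ratio was also taken within clusters. Within cluster 5 (164 against 147 cells) it was 2.91 for Hsph1, 2.25 for Hsp90aa1, 2.00 for Hspb1, 1.91 for Dnajb1, 1.42 for Hspa8 and 1.08 for Hspa5, close to the values of the whole class. Cluster 18 had 30 and 69 such cells, with few UMIs of Dnajb1 and Bag3. In fibroblast-like cells (184 against 881) the ratio ran from 0.972 for Hspe1 to 1.44 for Hsph1. In T cell-like cells (63 against 530) it was 0.994 for Dnajb1, 1.05 for Hspe1 and 1.07 for Hspa8, but 2.98 for Hspb1. There Hspa1a, Hspa1b and Hspb1 could not be told from the muscle RNA described above, so no joint expression is read from the 2.98. All these groups pooled the cells of every mouse and those with no hashtag, so differences between animals can enter the ratios. Hsph1, for example, ran from 28.5 to 155 CPM between the endothelial-like sets. The part of the animal was not tested.

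Correlations over cells gave the same picture as a description, with cells of 1 pool, of every mouse and of shared libraries as points. In smooth muscle-like cells Hspa1a correlated with Hspa1b at r = 0.735, with Hspa8 at 0.505, Hspb1 at 0.476, Hsp90aa1 at 0.444, Dnajb1 at 0.392, Hsph1 at 0.303, Bag3 at 0.197, Hspe1 at 0.191 and Hspa5 at -0.00473. In endothelial-like cells Hspb1 correlated with Hsp90aa1 at 0.644 and with Hspa8 at 0.575, and Hspa1a with Hspb1 at 0.524 and Hspa5 at 0.0513. In fibroblast-like cells Hspa1a and Hspa1b correlated at 0.253. In T cell-like cells Hsp90aa1 went with Hspa8 at 0.449 and with Hspe1 at 0.352.

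**Figure D5:**
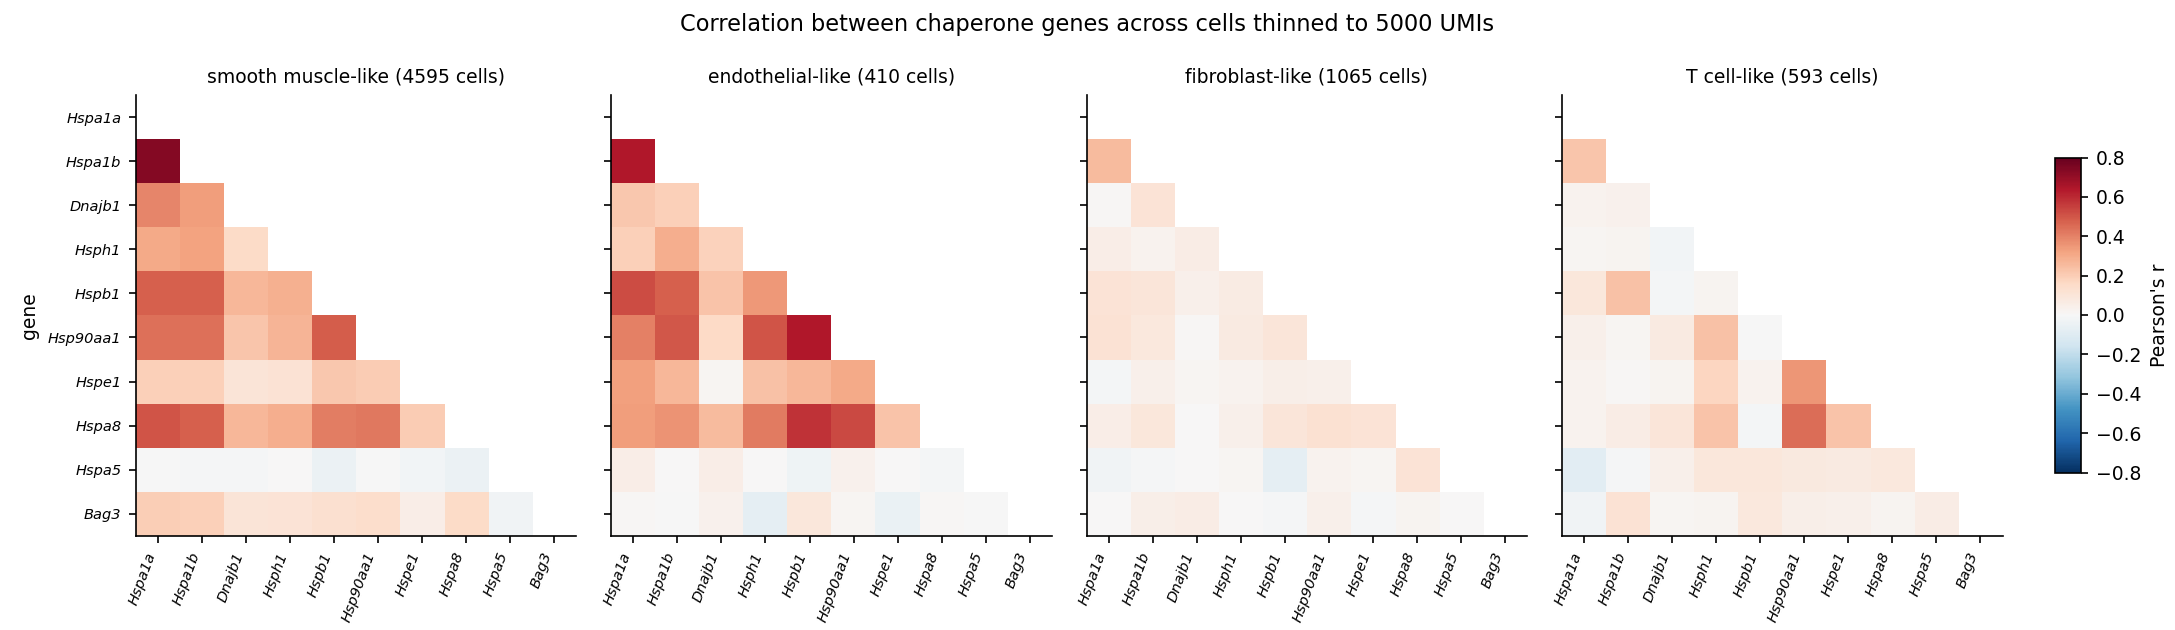
Pearson correlation over cells, thinned to 5000 UMIs, between each pair of chaperones in smooth muscle-like, endothelial-like, fibroblast-like and T cell-like cells (colour scale of r, genes on both axes). A block of inducible genes with Hspa8 shows in smooth muscle-like and endothelial-like cells, without Bag3 in the latter. Hspa5 stays near 0 with Hspa1a in both, as does Bag3 in endothelial-like cells (0.011).

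At equal depth the share of cells with a UMI also set muscle and endothelium above the other classes. Thinned to 1000 UMIs, 18.4% of endothelial-like cells (95% interval 16.2 to 20.8), 13.6% of smooth muscle-like cells (12.7 to 14.6), 2.45% of fibroblast-like and 1.38% of T cell-like cells (0.904 to 2.02) had a Hspa1a UMI. Unthinned the shares were 41.2%, 56.0%, 14.7% and 4.94%, at median depths of 4219, 11191, 7569 and 3770 UMIs. The order of endothelium and muscle therefore turned with depth. The T cell-like share is given as that of the class with the lowest Hspa1a, and the source of those UMIs was not tested.

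Hashtag state and mitochondrial share moved with some levels. Hspa1a measured 249 CPM in smooth muscle-like cells with 1 hashtag and 220.1 CPM in those with none, and 249 against 154 CPM in endothelial-like cells. Of endothelial-like cluster 5, 91.5% of cells carried 1 hashtag, but 71.4% of cluster 18. Over every hashtag state Hspa1a measured 294 CPM in cluster 5 and 49.2 CPM in cluster 18. These clusters also differed in median mitochondrial share (9.75% and 7.91%). The part of this mix in the endothelial-like values given here was not tested. Over ranges of mitochondrial share from under 5% through 10% and 15% to 25%, endothelial-like Hspa1a measured 212, 229.8, 297 and 312 CPM. Smooth muscle-like Hspb1 went the other way, at 1435, 1306, 1120.3 and 606 CPM, while smooth muscle-like Hspa5 measured 449, 399, 402 and 409 CPM. Smooth muscle-like Hspa1a had no such order, at 167, 228, 209 and 226 CPM. T cell-like Hsp90aa1 measured 1539, 935, 542 and 359 CPM over the same ranges, and T cell-like Hspe1 520, 209, 116 and 83.4 CPM. Only 43 T cell-like cells lay in the lowest range. The T cell-like levels of these genes thus mix cells of unlike mitochondrial share, which also differed between the clusters. Its median, in cells under 15%, was 10.2% in cluster 6 and 9.87% in cluster 10, both led by genes of dividing cells. In cluster 12, which had the lowest Hsp90aa1, it was 13.1%. Cell quality and cell state therefore cannot be told apart in these ranges. The part of cell quality in the class differences was not tested.

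Genes whose level over classes was most like that of Hspa1a were sought over 15 sums of 5 classes among 3044 genes. They were Hspb1 (r = 0.973), Hspa1b (0.968), the stress-induced transcription factor gene Atf3 (0.968), Clic4 (0.960) and Cdh13 (0.951). The other members followed at 0.821 for Bag3, 0.595 for Hspa8, 0.514 for Hsph1, 0.412 for Hspe1, 0.376 for Hspa5, 0.341 for Hsp90aa1 and 0.137 for Dnajb1. Closest to Hspa5 were P4hb (0.975), Selenof (0.974), Anxa5 (0.968), Dctn2 (0.967) and Ppib (0.965), of which P4hb and Ppib encode folding enzymes of the endoplasmic reticulum. The sums share animals and classes, so these values carry no p.

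Related genes were counted from lists, beginning with 48 other cytosolic and mitochondrial chaperones and co-chaperones. The counts of this and the following lists stand against the shares of all genes called higher and lower, which were 10.9% and 13.2% for smooth muscle-like against fibroblast-like, 16.9% and 16% for endothelial-like against smooth muscle-like, 12.8% and 14.8% for endothelial-like against fibroblast-like, 21.5% and 25.6% for T cell-like against endothelial-like cells, and 10.6% and 12.6% between the endothelial-like clusters. In smooth muscle-like against fibroblast-like cells 13 of the 48 were higher and 1 lower, with a median of 0.52, led by the muscle small heat shock proteins Hspb6 (173 ± 14.1 against 8.08 ± 3.84 CPM, 4.91 ± 0.26) and Hspb7 (3.97 ± 0.22). In endothelial-like against smooth muscle-like cells 4 of 48 were higher and 9 lower. There the Hsp40 gene Dnaja1 was higher (1185 ± 349 against 338 ± 31.6 CPM, 1.69 ± 0.13), as was the Hsp70 exchange factor gene Bag5 (1.62 ± 0.14), while Hspb6 (-3.85 ± 0.16) and Hspb7 (-3.67 ± 0.18) were lower. Endothelial-like against fibroblast-like cells gave 6 higher and 6 lower of 47, near the shares of all genes, with Dnaja1 (1.90 ± 0.15) and the Hsp70-Hsp90 adaptor gene Stip1 (1.38 ± 0.19) higher and the small heat shock protein gene Cryab (-1.88 ± 0.15) and Hspa13 (-1.65 ± 0.22) lower. In T cell-like against endothelial-like cells 3 were higher and 7 lower of 47, with Fkbp5, a co-chaperone of steroid receptors, higher (3.15 ± 0.17). Between the endothelial-like clusters 7 were higher and 7 lower of 46, with Dnaja1 (2.11 ± 0.24) and Cacybp (1.70 ± 0.23) higher in cluster 5 and Cryab (-2.33 ± 0.22) and Hspb7 (-2.45 ± 0.32) lower. Of the heat shock factor genes tested (3 in each class comparison, 2 between the endothelial-like clusters) none was called in any comparison.

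Endoplasmic reticulum chaperones and genes of the unfolded protein response, the surroundings of Hspa5, were counted from a list of 25, of which 24 were tested in each class comparison. Smooth muscle-like cells had 4 of 24 lower than fibroblast-like cells, near the share of all genes, and none higher, with a median of -0.62 and the disulfide isomerase gene Pdia6 at 131 ± 9.18 against 368 ± 29.4 CPM (-1.32 ± 0.11). Endothelial-like cells had 6 of 24 lower than fibroblast-like cells and none higher, with the same median of -0.62 and Sdf2l1 (-2.07 ± 0.24) and Selenos (-1.68 ± 0.14) named. Endothelial-like and smooth muscle-like cells differed in 1 of 24, Selenos (-1.39 ± 0.12). T cell-like cells had 11 of 24 lower than endothelial-like cells, 1 higher and a median of -0.92, with the collagen chaperone gene Serpinh1 at -3.94 ± 0.17. Between the endothelial-like clusters 5 of 24 were lower in cluster 5, such as P4hb (-1.07 ± 0.17), and 1 was higher, Atf4 (1.19 ± 0.22), which encodes a transcription factor of the integrated stress response.

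Immediate early genes, which also respond within minutes, were called in both directions in 4 of the 5 comparisons that called any. Smooth muscle-like cells had 4 of 17 higher than fibroblast-like cells and 6 lower, with Atf3 (3.85 ± 0.27) and Fosb (2.65 ± 0.36) higher and Klf4 (-2.50 ± 0.14) and Klf2 (74.5 ± 21.6 against 228 ± 21.9 CPM) lower. Endothelial-like cells had 7 of 17 higher than smooth muscle-like cells and 2 lower, namely Fosb (-1.63 ± 0.22) and Fos (-1.53 ± 0.18), with the flow-responsive factor genes Klf4 (4.36 ± 0.13) and Klf2 (4.33 ± 0.15) highest. Against fibroblast-like cells 8 of 17 were higher and none lower, with a median of 0.90 and Atf3 at 3.90 ± 0.33. T cell-like cells had 16 of 18 lower than endothelial-like cells and 1 higher, with a median of -2.51. Between the endothelial-like clusters 5 of 16 were higher in cluster 5, such as Atf3 (1.58 ± 0.23) and Klf4 (1.44 ± 0.17), and 2 lower, Ier3 (-2.21 ± 0.34) and Junb (-1.09 ± 0.30).

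Genes of proteotoxic and oxidative stress moved in both directions. Gadd45g, a growth arrest and DNA damage-inducible gene, was higher in smooth muscle-like than in fibroblast-like cells (60.7 ± 14.95 against 26.7 ± 5.24 CPM, 1.40 ± 0.22), where 4 of 13 were higher and 1 lower. The metallothionein genes Mt1 (-3.11 ± 0.15) and Mt2 (-2.96 ± 0.16) were lower in endothelial-like than in smooth muscle-like cells, where 1 of 14 was higher and 3 lower. Against fibroblast-like cells Mt1 (-2.80 ± 0.18) and Mt2 (-3.13 ± 0.20) were again lower in endothelial-like cells and Gadd45g (1.55 ± 0.26) was higher, with 2 of 13 higher and 3 lower in all. T cell-like cells had 10 of 14 lower than endothelial-like cells and none higher, with Gadd45g at -4.16 ± 0.24. Between the endothelial-like clusters 1 of 12 was higher and 4 lower in cluster 5, with Mt1 at 46.4 ± 9.85 against 189.9 ± 62.8 CPM. In the smooth muscle-like clusters no gene of any of these lists was called.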

How the data were processed

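Single-cell RNA and hashtag counts of 1 pool of ascending aorta cells from 3 mice were analysed. The deposited matrix held raw UMI counts that the authors made with Cell Ranger 6.0.1, per the file headers, and the submitters' processing notes name the genome mm10 and Seurat 4.0.5. Cell classes were rebuilt here without an annotation by the authors and may not match those of the study. The 10 genes, the related lists and the marker genes were chosen with earlier results of these data known.

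Hashtags were called with HTODemux of Seurat 5.3.0 (quantile 0.99), which set cutoffs of 129, 765 and 266 UMIs for the mice of 81, 84 and 88 weeks. Cells with at least 500 genes, at least 1000 UMIs and under 15% mitochondrial UMIs were kept (11301), of which Scrublet called 360 as doublets (3.19%), which were removed along with cells of more than 1 hashtag. The remaining 10408 cells were scaled to 10000 UMIs, put on a log scale and clustered by the Leiden method at resolution 0.8 (scanpy 1.11.5, igraph 0.11.9), with 15 neighbours in 30 components of 2000 variable genes. The chaperones, the related lists, mitochondrial and ribosomal protein genes did not enter the clustering. A cluster was named after the class whose markers, on average, lay furthest above the mean log2 level of all clusters. This excess had to reach 1.5, with at least 3 markers raised over the median of the clusters. In all 3 clusters stayed unnamed. Cluster 7 fell short of these limits, and in clusters 8 and 17 the leading genes held more markers of another class.

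Raw counts were summed per class and hashtag set where at least 10 cells were present, and compared in edgeR 4.0.16 by its quasi-likelihood F test (two-sided), with TMM scaling, a block for the animal and the filterByExpr filter, adjusted by Benjamini-Hochberg over all genes tested. The animal pairs the sums because both classes of a set carry the same hashtag; the numbers shared by gene expression and hashtag libraries mark libraries of 1 pool. The SE is the size of the log2 fold change divided by the root of F. With 3 sets a group, residual degrees of freedom were 2, and the spread was shared across genes. For T cell-like against endothelial-like cells edgeR shared it wholly, which makes p-values very small. Sets held 1701868 to 2241145 UMIs in smooth muscle-like, 1367627 to 2283306 in endothelial-like, 383704 to 1095489 in fibroblast-like and 160291 to 6681415 in T cell-like cells. The test was tried on simulated counts. Intervals of pooled levels (exact Poisson) and shares (exact binomial), and the limit of 3 UMIs for a count of 0, cover counting error only.

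The 10 chaperones were always named. From each related list and comparison the 2 genes called with the largest log2 fold change in each direction were eligible, among those with 1 sign in every set and at least 50 CPM in the higher group, and most of these are printed; some genes that the rule names are left out of the text. For likeness, the 5 genes with the highest Pearson r of log2(CPM + 10) were named, among genes of at least 50 CPM. Alternatives were DESeq2 1.42.0, no filter on low counts, no block, leaving out each set, other mitochondrial limits, no doublet removal, a hashtag count of at least 2 times its cutoff, leaving out cells with at least 2 UMIs of 11 T cell markers, and other clusterings. The comparison of Hspa1a between the smooth muscle-like clusters over cells of every hashtag state, and the ratios within clusters of cells with and without inducible Hsp70, were added after seeing the data.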

Additional observations from a re-analysis of the deposited data

Results flagged for a closer look

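Hspa1a was also present in the 3 clusters that received no name and so enter no comparison. Cluster 8 (442 cells), which held smooth muscle markers while T cell genes such as Lck and Ccr9 led it, had 197 CPM of Hspa1a (95% counting interval 185 to 209). Cluster 17 (95 cells, led by Igkc, S100a9 and S100a8) had 59.1 CPM (43.3 to 78.8). Cluster 7 (80 cells, led by Plac8, Myl10 and Tcrg-C1) had 28.8 CPM (18.2 to 43.2).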

How the results depend on the processing

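Of the log2 differences of the 10 chaperones under all alternatives, 636 kept direction and side of the threshold, 23 lost a call, 9 gained one and 21 changed sign. Of the counts of calls 130 stayed within 1.5 times and 8 did not. Of the levels in the 4 main classes 351 moved by less than the SD of the sets and 39 did not. Without doublet removal, where clusters were made anew, T cell-like Hspb1 stood at 228 CPM in place of 60.9 and Hspa1a at 39.2 in place of 13.3. Hspa1b then stood at 29.3 CPM in place of 7.88 and Bag3 at 11.7 in place of 3.11. The T cell-like levels of these genes thus depended on the doublet step. With cells of at least 2 times the hashtag cutoff, 860 genes were called between smooth muscle-like and fibroblast-like cells in place of 2325, and 1 between the smooth muscle-like clusters in place of 51, where DESeq2 called 7. Between the endothelial-like clusters 5 chaperones were called without cells with T cell RNA. Leaving out each set in turn gave 1962 to 2570.0 genes and 6 to 7 chaperones called for smooth muscle-like against fibroblast-like cells, 3332 to 3601 and 0 to 1 for endothelial-like against smooth muscle-like, 2111 to 2903 and 5 to 7 for endothelial-like against fibroblast-like, 4573 to 5245 and 6 to 6 for T cell-like against endothelial-like, 31 to 68 and 0 to 1 between the smooth muscle-like clusters, and 1657 to 2098 and 4 to 8 between the endothelial-like clusters. The 31 and 1657 genes and the 4 chaperones at the low end between clusters, and the chaperone called between endothelial-like and smooth muscle-like cells, came without the set of 88 weeks, and the chaperone called between the smooth muscle-like clusters without that of 84 weeks. The signs that turned belong to differences of at most 0.37 in size. The largest were Bag3 between the smooth muscle-like clusters (-0.37 ± 0.17) and Hsp90aa1 in endothelial-like against smooth muscle-like cells (-0.25 ± 0.16). In endothelial-like against smooth muscle-like cells Hspa1a was between -0.26 and 0.014 without each set, at 0.16 with the stricter hashtag limit and at 0.094 when cells with 1 hashtag were clustered alone, and Hsp90aa1 between -0.51 and 0.098 without each set. In endothelial-like against fibroblast-like cells Hspe1 was between -0.25 and 0.24 without each set, at -0.027 under 10% mitochondrial UMIs and at -0.044 without T cell RNA. In T cell-like against endothelial-like cells Dnajb1 was at 0.15 under 10%, Hsp90aa1 between -0.46 and 0.24 without each set and at 0.070 under 10%, and Hspe1 between -0.27 and 0.050 without each set and at 0.28 under 10%. Between the smooth muscle-like clusters Hspb1 was between -0.24 and 0.019 without each set, and with the stricter hashtag limit Hsp90aa1 was at 0.023 and Bag3 at 0.14. Between the endothelial-like clusters Hspe1 was between -0.31 and 0.23 without each set, at -0.060 under 10% and at -0.095 without T cell RNA. The cause was not tested in any of these.

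Without the replicate block for the animal 2357, 3458, 2555, 5010, 51 and 1857 genes were called in the comparisons, in the order above. The pairing moved few chaperone calls: without it 7 were called for endothelial-like against fibroblast-like cells, with Hsp90aa1 at 1.05, and 7 between the endothelial-like clusters, where Hsph1 stood at 1.11 (adjusted p = 0.18). Dnajb1 then stood at 1.93e-05 in T cell-like against endothelial-like cells and Hspe1 at -0.00258 between the endothelial-like clusters. No other chaperone call changed.

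Depth limits the sets of endothelial-like cluster 18 (24 to 39 cells) and the smallest T cell-like and fibroblast-like sets (34 and 42 cells). Under 10% mitochondrial UMIs the T cell-like set of 81 weeks had 8 cells and was dropped, which left 2 sets. The same number was left between the smooth muscle-like clusters with the stricter hashtag limit.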
